A study of Mus musculus with 6 samples.

Results

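A set of 10 interneuron genes was described across the 6 arrays of a mouse study of neonatal ethanol exposure: Gad1, Gad2, Slc32a1, Sst, Npy, Vip, Cck, Pvalb, Calb2 and Reln. They are 10 of the 22180 genes that at least 1 probe row named alone, and each was read from the row with the highest mean over the 6 arrays. The set was chosen by measured values, since it was proposed because Sst and Npy were highest on saline array 1. Their order across arrays is therefore given as a description, with no test.

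The ethanol group was 3 arrays from male C57BL/6J mice (an inbred laboratory strain) that received subcutaneous ethanol as pups (2.5 g/kg, dissolved in 0.15 M NaCl). The saline group was 3 arrays from male littermate controls injected with saline. Both groups were injected on postnatal days 4 and 7, with 2 injections a day separated by 2 h. Pools of 3 mice supplied the RNA of an array, 18 mice in all per the protocol. The labels give the tissue as whole hippocampus and disagree on age at collection: 21 days in the sample characteristics and the design text, day 70 in the treatment protocol. Values are log2 expression values as the authors deposited them, so a difference of 1 is a doubling. A row's brightness depends on its probes, so values are compared between arrays for a gene, and not between genes.

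Interneurons are the inhibitory neurons of local circuits, and they release GABA made from glutamate by the enzymes GAD67 and GAD65. In the hippocampus their classes are told apart by peptides and calcium-binding proteins: somatostatin in cells that contact distal dendrites, neuropeptide Y in ivy and neurogliaform cells, parvalbumin or cholecystokinin in basket cells, and VIP or calretinin in cells that contact other interneurons. Several of these genes are also strong outside the forebrain: in the cerebellum, Purkinje cells and local interneurons make GABA, many of them hold parvalbumin, and granule cells hold calretinin and reelin. In RNA from whole tissue, fewer cells of a class and less RNA per cell cannot be told apart.

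Arrays were alike in their medians, 6.55 to 6.66, and over all 41345 probe rows Pearson's r between saline array 1 and another array was 0.990 to 0.992 for ethanol and 0.987 for saline. As a check of the labelled tissue, 12 cerebellar granule cell genes had a median level of 10.44 over the arrays, with Gabra6 at 12.17 and Svep1 at 7.44 as the brightest and dimmest. The other cerebellar lists had medians of 10.58 (7 measured Purkinje cell genes) and 8.20 (10 genes of cerebellar GABAergic interneurons). The 9 measured dentate gyrus granule cell genes had a median of 6.80, between Dock10 at 8.87 and Tdo2 at 5.62, and 12 genes of CA1, CA2 and CA3 pyramidal cells had 7.15, between Wfs1 at 8.72 and Spink8 at 5.71. Lists of other regions (neocortical layers, striatum, hypothalamus, thalamus and habenula, midbrain and hindbrain, olfactory bulb) had medians from 6.69 (hypothalamus) to 7.29 (neocortical layers). The dentate and pyramidal cell medians lay within that range. Since probes differ in brightness, these levels do not rank the cell types, and the source of the RNA was not tested. Whether the values of the 10 genes come from hippocampal interneurons was not tested either.

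The start regions of the peptide genes and of Gad2 are shown first. As background, the somatostatin promoter is a textbook site of cAMP control. A role of cAMP in the values of these genes was not tested. RefSeq promoter windows of build GRCm38.p6 were searched over the 250 bases before each annotated start, on both strands. The table held 10 windows for 9 of the 10 genes, the other being Calb2. The full cAMP response element TGACGTCA was in 1.55% of all 32851 windows, and among these genes only in that of Sst, 48 to 41 bases before the start. Its core TGACG, which the full element contains on both strands, was in 17.8% of all windows and in those of Sst, Vip (79 to 75 bases before the start), Cck (47 to 43) and Gad2 (33 to 29). The AP-1 site TGACTCA was in 4.46% of all windows, the homeodomain core TAATTA in 4.84% and the E-box CAGCTG in 13% of them, and none was in a window of these genes. A match describes letters in a window and not a bound site. The start is the one the promoter table uses, which for Sst, Gad2 and Vip lies inside the gene span given with the values. The last 120 bases before it follow, 5′ to 3′ on the gene's own strand, with the full element or the core in capitals. The Sst sequence is chr16:23890845-23890964 (minus strand), Vip chr10:5639098-5639217 (plus), Cck chr9:121495695-121495814 (minus) and Gad2 chr2:22622207-22622326 (plus). Npy, which has no capitals, is chr6:49822590-49822709 (plus) and is shown because it had the next largest lead after Sst among these genes.
Sst: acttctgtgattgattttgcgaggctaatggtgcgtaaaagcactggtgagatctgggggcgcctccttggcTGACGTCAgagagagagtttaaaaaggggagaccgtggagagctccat
Vip: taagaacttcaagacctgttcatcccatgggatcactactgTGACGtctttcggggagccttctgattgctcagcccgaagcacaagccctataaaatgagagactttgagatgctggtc
Cck: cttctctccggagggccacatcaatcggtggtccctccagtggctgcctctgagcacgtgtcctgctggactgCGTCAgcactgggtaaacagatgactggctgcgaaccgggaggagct
Gad2: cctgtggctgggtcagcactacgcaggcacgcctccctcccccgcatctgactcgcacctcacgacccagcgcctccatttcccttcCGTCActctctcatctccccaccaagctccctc
Npy: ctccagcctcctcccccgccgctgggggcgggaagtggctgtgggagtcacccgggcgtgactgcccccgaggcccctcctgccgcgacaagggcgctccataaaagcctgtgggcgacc

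Across the 10 genes no difference between the groups passed the test. In the limma fit over all 41345 rows, 0 of the 10 genes and 0% of all rows had an adjusted p under 0.05 (Benjamini-Hochberg), and the adjusted p of the 10 genes lay between 0.857 and 0.983. At an unadjusted p under 0.05 there was 1 of the 10, Calb2, against 5.54% of all rows. Ethanol and saline values were fully separate for 1 of the 10, again Calb2, against 11.1% of all rows. Of the 10, 6 had a higher mean in ethanol and 4 a lower one (2 higher after cyclic loess normalization, 3 without saline array 2 and 9 without saline array 1), against 57.2% of all genes higher, and the median difference was 0.03, against 0.02 over all genes. None of these shares sets the 10 genes apart from the rest of the array. The spread was uneven: saline array 1 was the highest array for 7 of the 10 genes, against 21.2% of all genes, which is the pattern the set was proposed on, and saline array 2 was the lowest for 6.

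**Figure D1:**
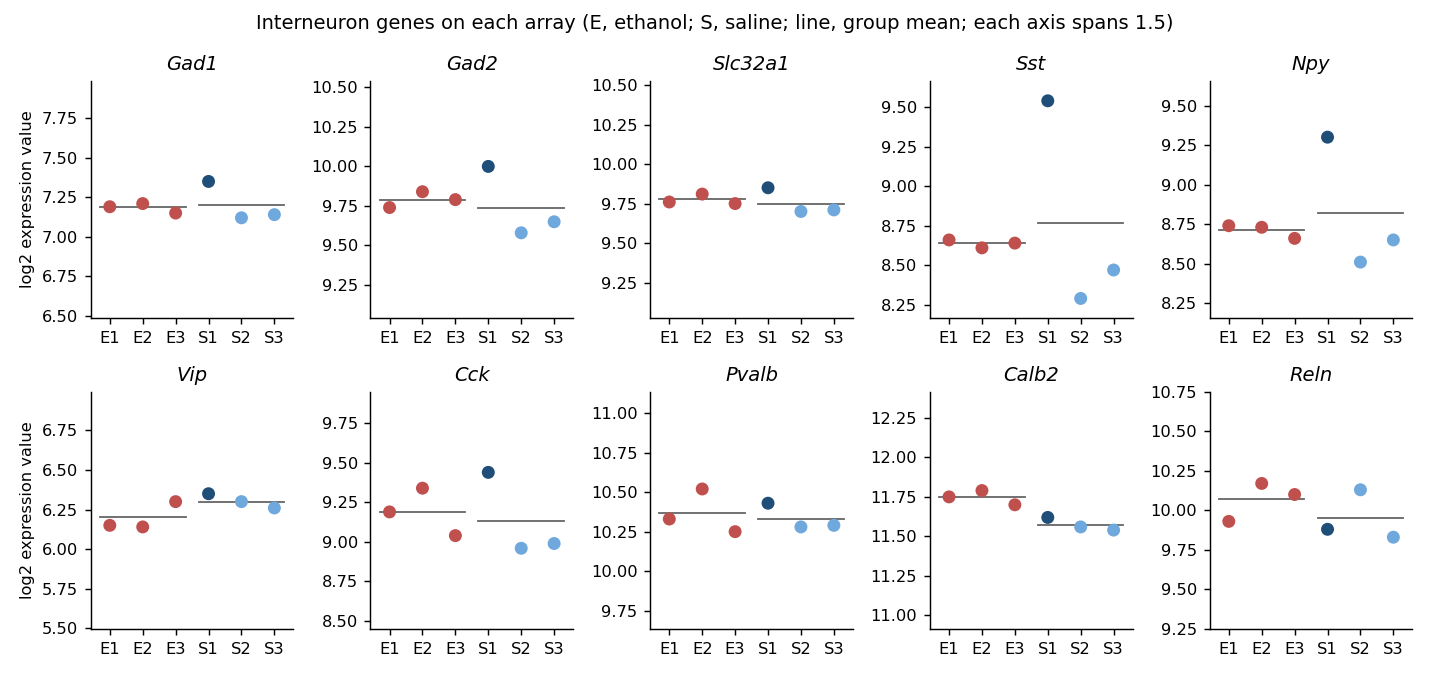
Log2 expression value of each interneuron gene (vertical axis, spanning 1.5 in every panel) on ethanol arrays 1 to 3 (E1 to E3, red) and saline arrays 1 to 3 (S1 to S3, blue, array 1 darker); each point is 1 pool of 3 mice and each line a group mean. Sst at 9.54 and Npy at 9.30 on saline array 1 stand above all other arrays, whereas the 3 ethanol arrays lie close together.

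No gene for making or packaging GABA passed the test. Gad1 (chromosome 2, 70561303 to 70602014, GRCm38), which encodes GAD67, the enzyme behind most basal GABA synthesis, had 7.19, 7.21 and 7.15 on the ethanol arrays and 7.35, 7.12 and 7.14 on the saline arrays. Its ethanol values lay between saline array 1 and the other saline arrays. The difference, ethanol minus saline, was -0.01 ± 0.09 (SE, adjusted p = 0.983 in limma).

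Gad2 (chromosome 2, 22621015 to 22693877) encodes GAD65, the form tied to synaptic vesicles. It had 9.74, 9.84 and 9.79 in ethanol and 10 (to the second decimal), 9.58 and 9.65 in saline, a difference of 0.05 ± 0.12 (SE, adjusted p = 0.951 in limma). Again every ethanol value lay between saline array 1 and the other saline arrays, and the saline spread (SD 0.22, n = 3) was wider than that of ethanol (SD 0.05, n = 3). Slc32a1 (chromosome 2, 158607260 to 158615747), the transporter that loads GABA and glycine into vesicles, had 9.76, 9.81 and 9.75 in ethanol and 9.85, 9.70 and 9.71 in saline. Saline array 1 was again highest and the other saline arrays lowest, in a narrower range, with a difference of 0.02 ± 0.08 (SE, adjusted p = 0.961 in limma). A dimmer row also names Slc32a1 and had 7.37, 7.48 and 7.09 in ethanol and 7.41, 7.33 and 7.28 in saline. In that row ethanol array 2 was highest and ethanol array 3 lowest, so the order of arrays was not shared by both rows of the gene.

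Among the neuropeptides Sst and Npy varied most, through 1 array. Sst (chromosome 16, 23889573 to 23891342), which encodes somatostatin, an inhibitory peptide of dendrite-targeting interneurons, had 8.66, 8.61 and 8.64 in ethanol and 9.54, 8.29 and 8.47 in saline. The means were 8.64 ± 0.02 in ethanol and 8.77 ± 0.68 in saline (SD, n = 3 each), and the difference was -0.13 ± 0.30 (SE, adjusted p = 0.951 in limma). The saline group thus held both the highest and the lowest arrays, with the ethanol arrays between them. Saline array 1 exceeded the highest other array by 0.88, or 1.84-fold, the 5th largest such lead among all 22180 genes, and exceeded the mean of the other saline arrays by 1.16.

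Npy (chromosome 6, 49822710 to 49829507), which encodes neuropeptide Y, a peptide that damps transmitter release, likewise had saline array 1 highest and the other saline arrays lowest, over a smaller range. It had 8.74, 8.73 and 8.66 in ethanol and 9.30, 8.51 and 8.65 in saline. The means were 8.71 ± 0.04 in ethanol and 8.82 ± 0.42 in saline (SD, n = 3 each), and the difference was -0.11 ± 0.20 (SE, adjusted p = 0.938 in limma). Saline array 1 led by 0.56, or 1.47-fold, the 12th largest lead among all genes, and stood 0.72 above the mean of the other saline arrays.

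Cck (chromosome 9, 121489824 to 121495694) encodes cholecystokinin, a peptide of basket cells and of some excitatory neurons. It had 9.19, 9.34 and 9.04 in ethanol and 9.44, 8.96 and 8.99 in saline, a difference of 0.06 ± 0.15 (SE, adjusted p = 0.951 in limma). Saline array 1 was again highest, though only 0.10 above ethanol array 2. Vip (chromosome 10, 5639193 to 5647617), the vasoactive intestinal peptide of interneurons that inhibit other interneurons, was the dimmest row of the 10, at 6.15, 6.14 and 6.30 in ethanol and 6.35, 6.30 and 6.26 in saline. Its difference was -0.11 ± 0.08 (SE, adjusted p = 0.865 in limma), and the groups overlapped through ethanol array 3.

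Calb2 was the member with separate groups. Calb2 (chromosome 8, 110142526 to 110168212) encodes calretinin, a calcium-binding protein of interneuron-selective cells and, in the cerebellum, of granule cells. It had 11.75, 11.79 and 11.70 in ethanol and 11.62, 11.56 and 11.54 in saline, so all ethanol arrays lay above all saline arrays. The difference was 0.18 ± 0.07 (SE), with an unadjusted p of 0.0439 and an adjusted p of 0.857 in limma, which does not pass the test. Its unadjusted p was not under 0.05 after quantile normalization or cyclic loess, with the replicate number as a block, or without any 1 of the arrays other than saline array 1. The difference was 0.09 after cyclic loess. Its order did not follow that of Sst and Npy, since saline array 1 lay 0.17 below the highest ethanol array.

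Pvalb (chromosome 15, 78191112 to 78206400) encodes parvalbumin, the calcium buffer of fast-spiking basket cells and of Purkinje cells. It had 10.33, 10.52 and 10.25 in ethanol and 10.43, 10.28 and 10.29 in saline, a difference of 0.04 ± 0.10 (SE, adjusted p = 0.957 in limma). Here ethanol array 2 was highest and the groups overlapped. Reln (chromosome 5, 21884454 to 22344705), the secreted protein reelin that guides neuronal layering, had 9.93, 10.17 and 10.10 in ethanol and 9.88, 10.13 and 9.83 in saline. It differed by 0.12 ± 0.11 (SE, adjusted p = 0.878 in limma), with saline array 2 inside the ethanol range.

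**Figure D2:**
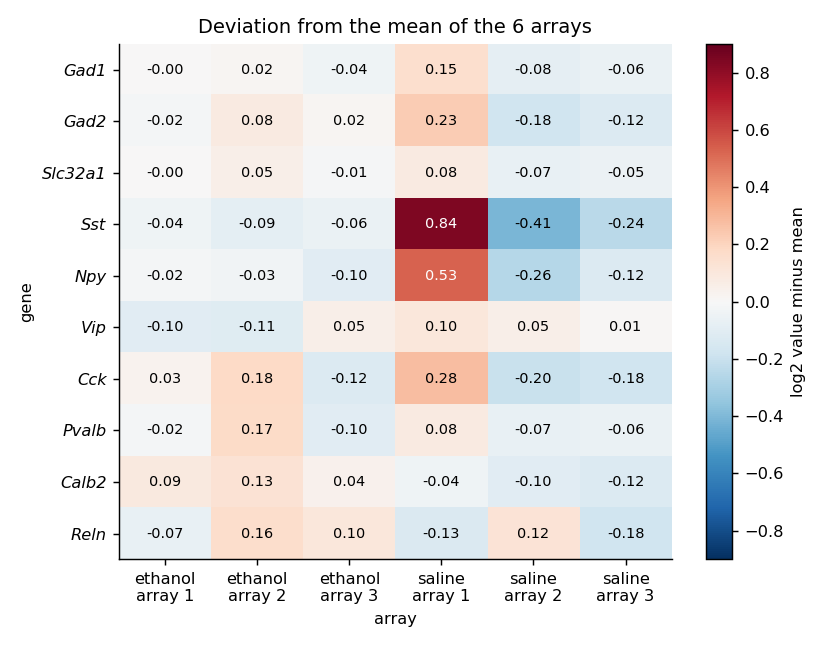
Each gene's log2 value on an array minus its mean over the 6 arrays (rows, genes; columns, ethanol arrays 1 to 3 then saline arrays 1 to 3; red above the mean, blue below). The saline array 1 column reaches 0.84 for Sst and 0.53 for Npy and is below the mean for Calb2 (-0.04) and Reln (-0.13).

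Deviations from the 6-array mean show which genes moved on saline array 1. They were 0.84 for Sst, 0.53 for Npy, 0.28 for Cck, 0.23 for Gad2, 0.15 for Gad1, 0.10 for Vip and 0.08 for both Slc32a1 and Pvalb. On saline array 2 the same genes other than Vip were below their means, at -0.41 for Sst, -0.26 for Npy, -0.20 for Cck and -0.18 for Gad2. The deviation was thus largest for Sst and Npy, smaller for Cck and the GABA synthesis genes, and below 0 for Calb2 and Reln.

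Leaving out saline array 1 changed the sign of the Sst and Npy differences. Without it Sst was 0.26 ± 0.09 higher in ethanol (SE, unadjusted p = 0.0277, adjusted p = 0.496 in limma), and Npy was 0.13 ± 0.09 higher (unadjusted p = 0.181, adjusted p = 0.675). Since the array left out was picked for its high Sst and Npy values, these p-values are a description and lend no support to a difference. Gad2 differed by 0.18 ± 0.08 (adjusted p = 0.571), Cck by 0.22 ± 0.11 (adjusted p = 0.596) and Calb2 by 0.20 ± 0.08 (unadjusted p = 0.0464, adjusted p = 0.531). Of the 10 genes, 9 were then higher in ethanol, Vip being the exception at -0.09 ± 0.09, against 59.5% of all genes, and the median difference was 0.11, against 0.03 over all genes. At an unadjusted p under 0.05 were 2 of the 10, Sst and Calb2, against 9.30% of all rows, and 0 passed the adjusted test, as did 0% of all rows.

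Without that array the groups did not overlap for 7 of the 10 genes, all with ethanol higher: Sst, Npy, Gad1, Gad2, Slc32a1, Cck and Calb2. The share of all rows that were separate in this direction was 14.1%. The set was proposed because Sst and Npy were high on the array left out, so this count carries no test. It also moved with scaling: after quantile normalization or cyclic loess of the other 5 arrays, 5 genes did not overlap (Sst, Npy, Gad1, Gad2 and Calb2), and 7 and 6 of the 10 were higher in ethanol.

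**Figure D3:**
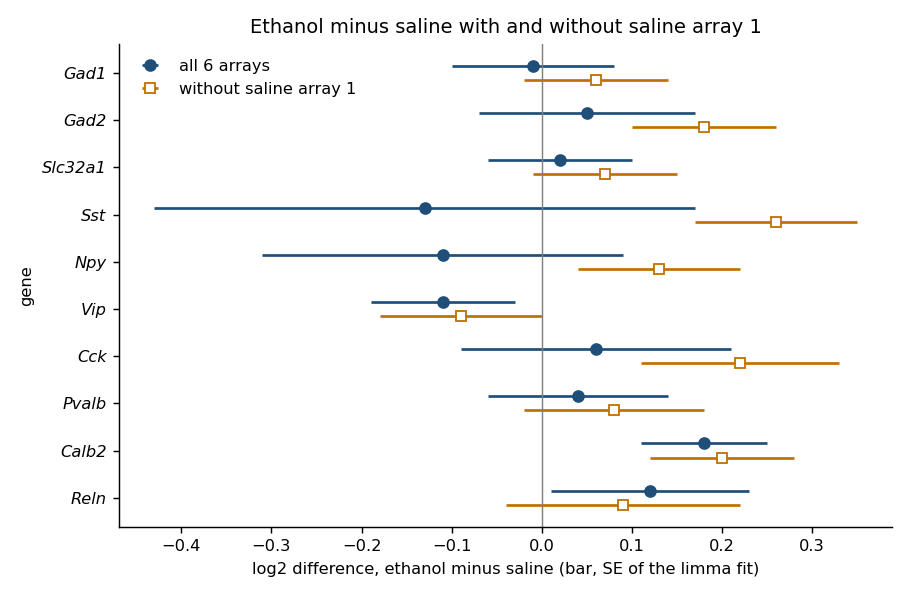
Difference between group means (horizontal axis, log2, ethanol minus saline; bars are the SE of the limma fit) for each gene with all 6 arrays (filled circles) and without saline array 1 (open squares). Sst is at -0.13 with all arrays and at 0.26 without saline array 1, and Calb2 at 0.18 and 0.20.

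Set against the whole array, leads of this size were few. Saline array 1 was the highest array by at least 0.5 for 16 of the 22180 genes. The corresponding numbers were 11, 4 and 3 on ethanol arrays 1 to 3 and 41 and 17 on saline arrays 2 and 3, so such genes occurred on every array. On saline array 1 the largest leads were 1.63 for Nrgn, a postsynaptic calmodulin-binding protein of forebrain excitatory neurons, 1.30 for Tcf7l2, a transcription factor of thalamic neurons, and 1.12 for Lcn2, an iron-binding protein of inflammation. Gh, which encodes growth hormone, followed at 0.91, then Sst. Next were S100a8, a protein of neutrophils, at 0.77, the transcription factor gene Tfap2d at 0.77, Stfa2l1 at 0.76, Ptgs2, an inducible prostaglandin synthase of neurons, at 0.73, and the olfactory receptor Olfr1305 at 0.60.

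**Figure D4:**
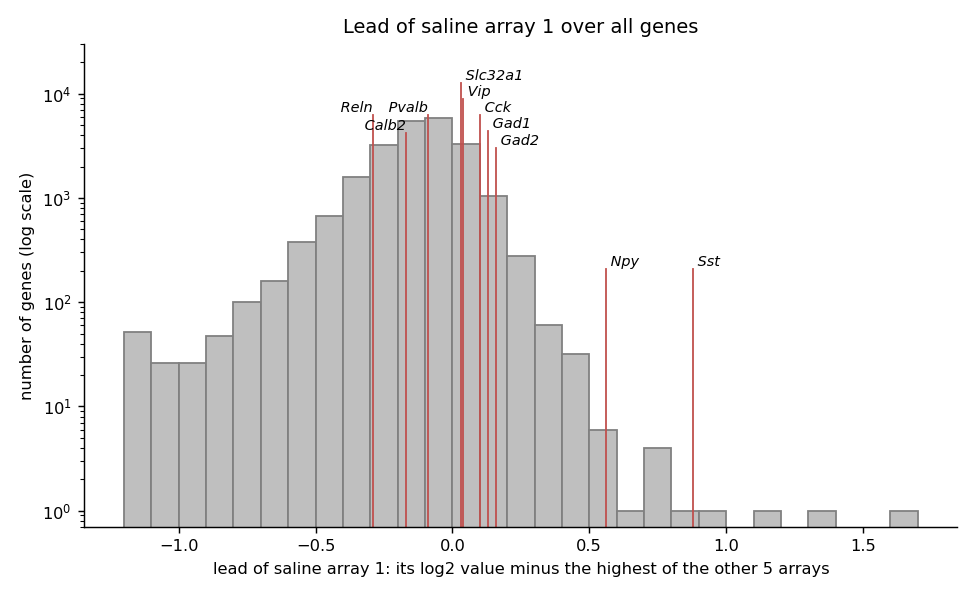
Number of genes (vertical axis, log scale) by the lead of saline array 1, its log2 value minus the highest of the other 5 arrays (horizontal axis; leads under -1.1 are gathered in the leftmost bar). Red lines mark the 10 interneuron genes: Sst at 0.88 and Npy at 0.56 lie in the sparse right tail. Gad2 (0.16), Gad1 (0.13) and Cck (0.10) lie in the upper part, at ranks 702, 957 and 1450 of 22180 genes. The others lie between -0.29 and 0.04, and the median over all genes was -0.11.

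Some markers of other regions were also high on saline array 1, beside Sst and Npy, and others were not. The share of all genes highest there was 21.2%. Of 14 thalamus and habenula genes, 9 were highest there. The mean level of the 14 was 7.43 on that array, against 7.15 to 7.24 on the ethanol arrays and 7.16 on the lowest saline array. Tcf7l2 had 7.11, 7.12 and 7.00 in ethanol and 8.47, 7.03 and 7.17 in saline, and Slc17a6, the vesicular glutamate transporter of thalamic and brainstem neurons, led by 0.37. Lhx9, a thalamic transcription factor, led by 0.16. The other leads in this list were small, from 0.03 for Lef1 to 0.16 for Rgs16. The rest of the 14 were not highest there, at -0.28 (Gpr151) to -0.01 (Chrnb4) against the highest other array. The higher list mean thus rested largely on Tcf7l2 and Slc17a6. Among 8 telencephalic excitatory neuron genes only 2 were highest there, Nrgn and the kinase Camk2a, which led by 0.41.

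Of 17 hypothalamus genes 7 were highest on saline array 1, with Pomc leading by 0.20, and of 7 olfactory bulb genes 3 were, with Meis2 leading by 0.44, whereas Eomes of the same list was lowest there, at 7.28. Midbrain and hindbrain genes had 2 of 14 highest there and neocortical layer genes 3 of 10. In the first of these lists Dbh, the enzyme that makes noradrenaline, had 8.28, 6.87 and 8.02 in ethanol and 7.26, 6.91 and 7.53 in saline. Saline array 1 stood at -1.02 against ethanol array 1, the highest, but was within the range of the other arrays. In the other list Nr4a2, a nuclear receptor, was lowest on saline array 1, at -1.31 against the highest other array. Eomes, Dbh and Nr4a2 were picked after their values were seen. Hippocampal lists had 5 of 9 dentate genes and 6 of 12 pyramidal cell genes highest there, with no lead above 0.11. Cerebellar granule cell genes had 3 of 12, Purkinje cell genes 3 of 7 and cerebellar GABAergic interneuron genes 5 of 10. Among glia, microglia genes had 4 of 7, astrocyte genes 1 of 8 and oligodendrocyte genes 1 of 7. The part of other tissue in the Sst and Npy values was not tested.

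**Figure D5:**
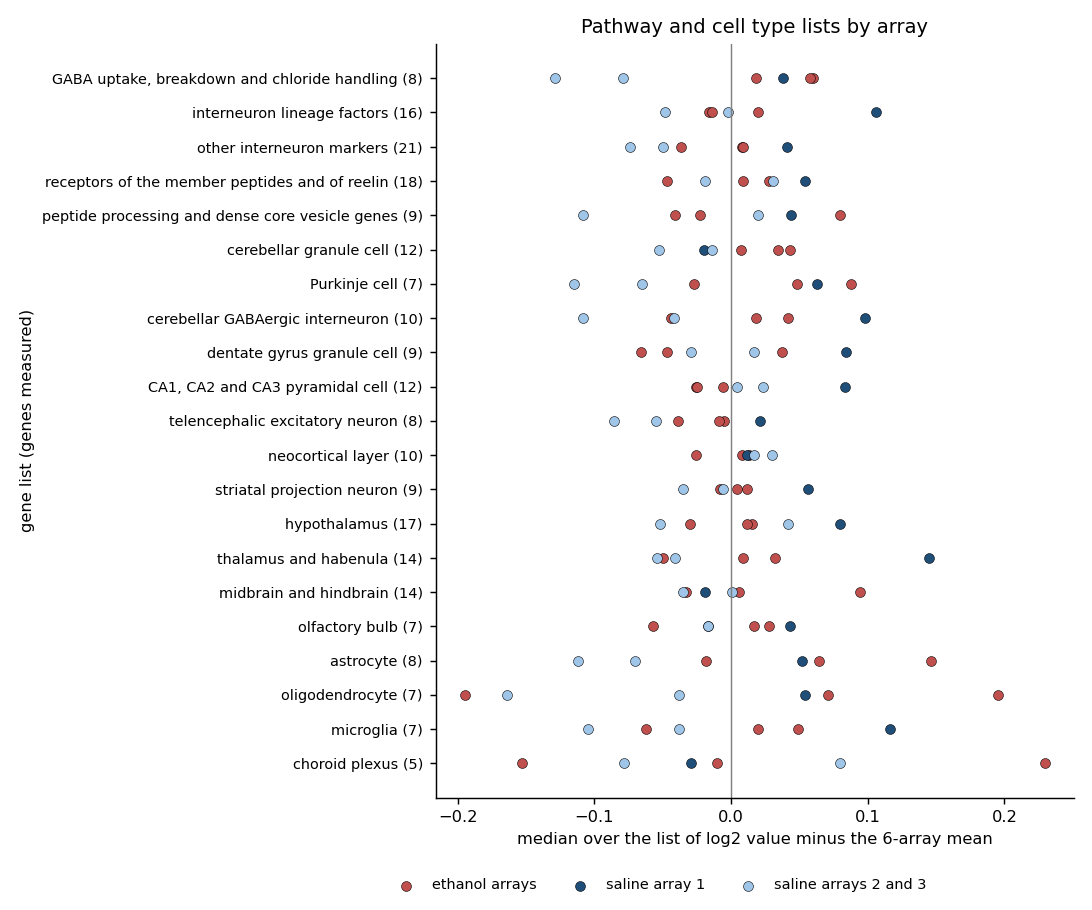
Median over each gene list (rows, with the number of genes measured) of the log2 value minus the 6-array mean (horizontal axis), for the ethanol arrays (red), saline array 1 (dark blue) and saline arrays 2 and 3 (light blue). Saline array 1 is above the other arrays in many lists. Among them are those of thalamus and habenula (0.15), microglia (0.12), the interneuron lineage (0.11) and cerebellar GABAergic interneurons (0.10). It is not above them in others, such as the cerebellar granule cell list (-0.02).

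Over the 6 arrays, 2790 genes had values ranging over at least 0.5, and those most like the mean of Sst and Npy were found by Pearson's r, given as a description, since it rests largely on saline array 1. The first was Gstm2, a glutathione transferase, at r = 0.997, and the next was Camk2a at 0.995. Camk2a had 9.73, 9.75 and 9.71 in ethanol and 10.16, 9.58 and 9.62 in saline, and Gstm2 had 5.97, 5.97 and 5.94 in ethanol and 6.49, 5.79 and 5.84 in saline. Both thus had, like Sst, all ethanol values between saline array 1 and the other saline arrays. Without saline array 1 r was 0.97 for Gstm2 and 0.95 for Camk2a over 5 arrays.

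The rest of the nearest 10 were Krtap16-3 (r = 0.990), Fam163b (0.987), S100a8 (0.983), Trim25 (0.968), Tekt5 (0.955), Vmn2r84 (0.955), Gpr165 (0.954) and Atg9b (0.954). Among them r without saline array 1 ranged down to 0.64, for Atg9b. For Gad1 the nearest were Fam163b, Camk2a and Il34 (0.982 to 0.979), for Gad2 Tekt5, Foxred1 and Gfra2 (0.980 to 0.975), and for Slc32a1 Foxred1, Syt5 and Slc6a11 (0.978 to 0.969). The range limit did not apply to the 10 genes themselves. Gad1 (0.23), Slc32a1 (0.15), Vip (0.21), Calb2 (0.25) and Pvalb (0.26) ranged over less than the median of all genes, 0.30. Over only 6 arrays the nearest of 2790 genes reach a high r easily, so these neighbours are a description.

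Cck was nearest to Slc6a11, the GABA transporter GAT3 of astrocytes, at r = 0.995, followed by Sec61b (0.982) and Ap1m1 (0.974). Slc6a11 had 9.72, 9.90 and 9.42 in ethanol and 10.17, 9.29 and 9.35 in saline, and its arrays stood in the same order as those of Cck, from saline array 1 at the top to saline array 2 at the bottom. Pvalb was nearest to Ly6c2 (0.970), Mog, a myelin protein gene (0.969), and Pdia6 (0.953), and all had ethanol array 2 as their highest array. Calb2 was nearest to Pramel3, Olfr139 and Hcar2 (0.938 to 0.934), Reln to Vmn1r47, Nlrp4f and Fam243 (0.982 to 0.958), and Vip to Prdm13, Spata45 and Rsad2 (0.924 to 0.918). Several of these are dim rows: Vmn1r47 had 2.55, 2.89 and 2.80 in ethanol, and Pramel3 had 3.37, 3.61 and 3.44.

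No other gene of GABA handling passed the test. In a list of 10 genes for GABA uptake, breakdown and chloride handling, 8 were measured and 7 had a higher mean in ethanol (57.2% of all genes did). In limma 0 had an unadjusted p under 0.05, against 5.54% of all rows, and 0 were called. The median difference was 0.09, against 0.02 over all genes. Slc6a11 led on saline array 1 by 0.27, whereas Slc38a1, a glutamine carrier, and Abat, which breaks GABA down, were within 0.03 of their highest other array. Without saline array 1, 7 of the 8 were higher in ethanol, against 59.5% of all genes.

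No transcription factor of the interneuron lineage passed the test. Of 16 measured of 20 listed, 6 were higher and 10 lower in ethanol, against 57.2% of all genes higher, with a median difference of -0.02, and 9 were highest on saline array 1. Sp8, a factor of late-born VIP and reelin interneurons, had 5.92, 5.57 and 5.71 in ethanol and 5.33, 5.52 and 5.37 in saline, with separate groups. Its difference was 0.33 ± 0.11 (SE), with an unadjusted p of 0.0223 and an adjusted p of 0.857 in limma. Dlx5, a factor of the ganglionic eminences, led on saline array 1 by 0.21, Npas1 by 0.08 and Sp9 by 0.07. Without saline array 1, 10 of the 16 were higher in ethanol, against 59.5% of all genes.

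Other interneuron markers were evenly split. Of 21 measured of 22 listed, 11 were higher and 10 lower in ethanol, against 57.2% of all genes higher, with a median difference of 0.00. At an unadjusted p under 0.05 in limma there were 0, against 5.54% of all rows. Tac1, which encodes substance P, led on saline array 1 by 0.34, the potassium channel gene Kcnc2 of fast-spiking cells by 0.17 and the chemokine Cxcl14 by 0.12. Tac1 had 5.83, 5.76 and 5.81 in ethanol and 6.16, 5.80 and 5.75 in saline, so it too was set apart by 1 array. Without saline array 1, 15 of the 21 were higher in ethanol, against 59.5% of all genes. That array was left out for its high Sst and Npy values, so this count carries no test.

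Receptors of the peptides and of reelin showed no called difference. All 18 were measured, 7 were higher and 11 lower in ethanol, against 57.2% of all genes higher, and the median difference was -0.03. Without saline array 1, 6 of the 18 were higher in ethanol, against 59.5% of all genes, with a median difference of -0.02. The cholecystokinin receptors Cckar and Cckbr led on saline array 1 by 0.14 and 0.12, and Dab1, the adaptor of reelin signalling, by 0.14. For peptide processing and dense core vesicles, 9 of 10 genes were measured and 7 were higher in ethanol, with a median difference of 0.02. Without saline array 1 the count was again 7 of the 9. Scg2, a secretogranin, led on saline array 1 by 0.14, Pcsk1, a prohormone convertase, by 0.10 and Vgf by 0.03, all well under the lead of Sst. In both lists 0 genes had an unadjusted p under 0.05 in limma, against 5.54% of all rows.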

How the data were processed

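The authors deposited log2 values, 1 per array for each of 41345 probe rows; the log2 scale was read from the value range and the similar medians. Per the labels' protocols, each labelling started from 200 ng of total RNA, which was converted to labelled cDNA for Affymetrix whole-transcript arrays. Background correction, summarization and scaling are not given in the sources used here. Per the submitters' processing notes the build was mm 10. The platform annotation named 1 gene for 23521 rows, several for 1814 and none here for 16010. No filter was applied.

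Every row was fitted with limma (version 3.58.1, under R 4.3.3; lmFit, then eBayes), two-sided and with no covariate. The arrays gave 4 residual degrees of freedom and the prior gave 2.94. Benjamini-Hochberg adjustment ran over the whole table, with calls at 0.05. The fit was tested on simulated data. Since arrays are pools, p-values reflect pool-to-pool spread only, and precision is limited by having 3 arrays a group. Neither the labels nor the file give a scan date or batch.

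The lead of saline array 1 is its value minus the highest of the other 5 arrays. Genes were named by a rule: the 10 interneuron genes; from each pathway list up to 3 with the smallest p among those under 0.05 unadjusted and up to 3 with the largest leads; from cell type lists up to 3 with the largest leads, and the brightest and dimmest genes where tissue was described; the 10 genes most like Sst and Npy and the 3 most like each other gene; and the 10 largest leads, without predicted and small RNA genes. Only some of the cell type genes the rule allowed are given. The interneuron genes and the lists were chosen with earlier results of these data known. Alternatives covered scaling, the limma prior and trend, array weights, a filter on dim rows, the row per gene, the replicate number as a block and leaving out each array. Deviations of same-numbered arrays from their group means correlated at 0.10, -0.06 and 0.04 over all rows. These values show no strong pairing by number, and a weaker one could not be seen this way.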

Additional observations from a re-analysis of the deposited data

How the results depend on the processing

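A first group of settings left out no array, or left out saline array 1 and rescaled the others. Under these, 98 differences of the 10 genes kept their direction and side of the threshold and 21 changed sign. With each array left out in turn, 50 kept them and 10 changed sign. The number of the 10 genes at an unadjusted p under 0.05 was 0 after quantile normalization, after cyclic loess and with the replicate number as a block, which changed no adjusted call, and 2 genes were higher in ethanol after cyclic loess. Gad1 was 0.03 after median centring and 0.01 after quantile normalization, which gave Gad2 -0.02, Slc32a1 -0.05 and Pvalb -0.04. Cyclic loess gave Gad2 -0.03, Slc32a1 -0.05, Cck -0.00 and Pvalb -0.05, and the mean of its rows gave Slc32a1 -0.00. Chosen after seeing the data, quantile normalization of the arrays other than saline array 1 gave Gad1 0.09, Slc32a1 -0.02, Sst 0.21, Npy 0.08 and Pvalb -0.01. Cyclic loess of those arrays gave Gad1 0.07, Slc32a1 -0.03, Sst 0.20, Npy 0.06, Pvalb -0.02 and Reln -0.01. Vip was below the filter on dim rows and has no value there. The array weights were lowest for saline array 1 (0.68) and highest for ethanol array 1 (1.68), and with them Sst and Npy each differed by -0.07.

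Over the 6 fits that each left out 1 array, 0 to 1 rows were called (1 without saline array 3), 3 to 9 of the 10 genes were higher in ethanol and 0 to 2 were at an unadjusted p under 0.05. The differences ranged from -0.36 to 0.26 for Sst, -0.26 to 0.13 for Npy, -0.06 to 0.06 for Gad1, -0.03 to 0.18 for Gad2, -0.00 to 0.07 for Slc32a1, -0.02 to 0.22 for Cck and -0.04 to 0.09 for Pvalb. Sst and Npy changed sign only without saline array 1. The leads of saline array 1 were 0.88 to 0.90 for Sst and 0.56 to 0.57 for Npy with any 1 other array left out, which can only keep or raise a lead. With all 6 arrays, median centring gave leads of 0.86 for Sst and 0.50 for Npy, and quantile normalization 0.89 and 0.58. Without saline array 1, 10 of the 16 interneuron lineage factors and 6 of the 18 receptor genes were higher in ethanol, against 59.5% of all genes. The cause was not tested. With 3 arrays a group, standard errors of 0.07 to 0.30 over the 10 genes limit the differences that could be detected.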
